A study of Mus musculus with 12 samples.

Results

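Brd2, Brd3 and Brdt encode BET proteins, readers that bind acetylated lysines, and were followed here through every probe that the array annotation assigns to them. These 3 of the 19057 named genes on the array have 6 of its 45281 probes, 2 for Brd2, 1 for Brd3 and 3 for Brdt. The cells were E14 mouse embryonic stem cells, a male wild-type line of strain 129/Ola, grown on gelatin without feeders in serum and LIF, the cytokine that sustains self-renewal. Untreated cells (0 h) and cells held in 50 nM panobinostat (LBH589), an inhibitor of histone deacetylases, for 2 h, 6 h or 18 h were each measured on 3 single-colour Illumina bead arrays, 12 in all. All groups come from this 1 line, and the labels name no vehicle control, so drug, handling and time in culture cannot be told apart.

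BET proteins carry a pair of bromodomains, pockets that hold acetylated lysines of histone tails, and an extraterminal domain that recruits partner proteins. Through such partners they help paused RNA polymerase II to resume, in part with the kinase complex P-TEFb. Histone deacetylases remove the acetyl marks that these proteins read. Brd2 and Brd3 are made in most cell types, whereas Brdt is normally made in male germ cells, where it acts in meiosis and in the compaction of acetylated sperm chromatin.

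The data show a split within the family. Brdt rose on 2 of its 3 probes at 18 h, by 2.56 (ILMN_2705747) and 2.04 (ILMN_3127006) on the log2 scale, or by 1.17 and 1.14 without background correction. At 0 h ILMN_2705747 was detected on 1 of 3 arrays and ILMN_3127006 on all 3. The main probes of Brd2 and Brd3 were bright on all 12 arrays and did not pass the test at any time, with changes between -0.28 and 0.35 on the log2 scale. Changes are log2 changes with standard error (SE) or 95% interval from limma's moderated test over 20029 probes, and p-values are adjusted over all of them with 0.05 as the threshold.

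The promoter of Brdt is shown first because it is the gene that rose, and those of Brd3 and Brd2 stand beside it as the genes that did not pass. The sequences come from RefSeq on build GRCm38.p6 and run from 250 bases before to 50 bases after an annotated start. For Brd2, which has 3 starts there, the one farthest upstream is printed. Capitals mark matches to 5 promoter motifs searched on both strands. These were the E-box CACGTG, bound by basic helix-loop-helix factors, the CCAAT box (CCAAT or ATTGG), the GC box (GGGCGG or CCGCCC), the TATA box (TATAAA or TTTATA) and an E2F6 motif (TCCCGC or GCGGGA).
Brdt, chr5:107330944-107331243, plus strand: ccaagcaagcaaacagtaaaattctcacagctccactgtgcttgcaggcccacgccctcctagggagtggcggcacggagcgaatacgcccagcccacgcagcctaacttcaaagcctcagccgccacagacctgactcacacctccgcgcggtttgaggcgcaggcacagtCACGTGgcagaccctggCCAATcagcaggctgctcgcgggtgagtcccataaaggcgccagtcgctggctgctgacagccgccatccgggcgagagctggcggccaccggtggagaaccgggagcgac
Brd3, chr2:27475349-27475648, minus strand: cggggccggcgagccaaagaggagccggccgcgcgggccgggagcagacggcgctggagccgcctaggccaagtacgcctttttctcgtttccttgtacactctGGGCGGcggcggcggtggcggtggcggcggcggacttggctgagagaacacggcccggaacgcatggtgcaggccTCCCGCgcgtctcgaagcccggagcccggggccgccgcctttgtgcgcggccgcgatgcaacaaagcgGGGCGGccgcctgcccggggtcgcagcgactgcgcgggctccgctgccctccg
Brd2, chr17:34122558-34122857, minus strand: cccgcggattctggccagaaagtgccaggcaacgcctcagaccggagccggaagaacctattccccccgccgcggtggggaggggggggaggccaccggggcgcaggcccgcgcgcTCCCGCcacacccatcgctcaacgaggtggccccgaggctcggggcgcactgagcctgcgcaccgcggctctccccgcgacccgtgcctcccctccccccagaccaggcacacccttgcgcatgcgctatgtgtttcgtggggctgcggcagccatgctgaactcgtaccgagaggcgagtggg

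The Brdt window holds 1 E-box, which begins 78 bases before the start, and 1 CCAAT box, which begins 61 bases before it. No marked motifs overlap in the printed sequences. An E-box is present in 7.15% of the 32851 promoter windows of the same length, a CCAAT box in 37.4%, a GC box in 35.7%, a TATA box in 13.6% and the E2F6 motif in 20%. The E-box and the CCAAT box were found in none of the 3 Brd2 windows and not in that of Brd3. The Brd3 window has 2 GC boxes and 1 E2F6 motif, the printed Brd2 window has 1 E2F6 motif, and each of the other two Brd2 windows has 1 GC box. Brdt has 23 CpG pairs in its window, against 46 for Brd3, 14 to 32 for the Brd2 windows and a median of 7 over all windows. A match is a description of letters and not evidence of binding.

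Between 16813 and 18111 probes were detected per array (detection p-value under 0.05), and the mean signal per array lay between 307.3 and 482.7 units. Within groups, the correlation between arrays across probes was 0.97 to 0.988. Whether replicate RNAs were taken from separate cultures is not stated, and p-values therefore cover the spread among the arrays at hand, possibly a technical one. All 10 embryonic stem cell markers were detected on every array, and their summed normalized signal lay at 46700 to 57000 at 0 h and at 25900 to 30100 at 18 h. The sum weighs bright markers most, and Dppa5a, the brightest, changed by -0.26 at 18 h (limma adjusted p = 0.212). All the other markers fell at 18 h and passed limma's test, with log2 changes from -0.92 for Lin28a to -2.53 for Esrrb.

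Brdt is interrogated by 3 probes, of which ILMN_2705747 and ILMN_2515856 are annotated to RefSeq transcript NM_054054 and ILMN_3127006 to NM_001079873. ILMN_2705747 read 4.81, 5.25 and 4.86 (normalized log2 signal) on the 0 h arrays and 4.83, 4.66 and 4.82 at 2 h. At 6 h it read 6.71, 6.72 and 6.39, and at 18 h 7.73, 7.18 and 7.70. Every 6 h array lay above every 0 h and 2 h array, and every 18 h array lay above every 6 h array. Groups separated upward in this way for 21.1% of all tested probes at 6 h and for 20.8% at 18 h, each against 0 h, for 18% between 2 h and 6 h and for 14.5% between 6 h and 18 h.

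Before normalization, ILMN_2705747 gave 100 to 124 units on the 0 h arrays, at most 123 at 2 h, 174 to 234 at 6 h and 235 to 409 at 18 h. It was detected on 1 of 3 arrays at 0 h (replicate 2, with a detection p-value of 0.0256), on 0 of 3 at 2 h, and on all 3 at 6 h and at 18 h. Its early readings are thus at the edge of what the array resolves. The probe reached the detection filter only through the 6 h and 18 h arrays, where it is high, so its tests are not independent of that filter. Without the filter it still passed at 6 h and at 18 h (limma adjusted p = 0.00033 and 1.52e-05).

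From 4.98 ± 0.24 at 0 h (SD, n = 3), ILMN_2705747 stood at 4.77 ± 0.10 at 2 h, a change of -0.20 (SE 0.19, limma adjusted p = 0.662). By 6 h it had risen to 6.61 ± 0.19, a change of 1.63 (SE 0.19, limma adjusted p = 7.38e-05), and by 18 h to 7.54 ± 0.31, a change of 2.56 (95% interval 2.15 to 2.97, limma adjusted p = 1.62e-06). Against 2 h, where no array detected it, the 6 h level was at least 2.9-fold higher (measured means 4.77 and 6.61, limma adjusted p = 0.000261). Here the mean of the brighter group is set against the mean, per array, of the lowest detected signal or the probe's own, whichever is higher. A further rise of 0.93 separated 18 h from 6 h (SE 0.19, limma adjusted p = 0.00889).

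ILMN_3127006 read 5.64, 5.88 and 6.16 at 0 h and 5.91, 5.94 and 5.84 at 2 h. Its readings were 6.04, 6.19 and 6.50 at 6 h and 7.82, 7.87 and 8.11 at 18 h. The 6 h arrays overlapped with the 0 h arrays but lay above every 2 h array, as for 18% of all tested probes. The 18 h arrays stood above all others, a separation seen for 20.8% of tested probes against 0 h and 14.5% against 6 h. It was detected on all 12 arrays, with detection p-values of at most 0.00748 and signals before normalization of 125 to 509 units.

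At 6 h the change of ILMN_3127006 was 0.35 (SE 0.18, limma adjusted p = 0.166). At 18 h it had risen by 2.04, from 5.89 ± 0.26 to 7.93 ± 0.15 (SD, n = 3, 95% interval 1.66 to 2.42, limma adjusted p = 4.18e-06), the 217th largest rise among the probes. Between 6 h and 18 h the change was 1.69 (SE 0.18, limma adjusted p = 0.000223), the 62nd largest rise of that comparison.

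The measured courses of the 2 Brdt probes thus differed at 6 h, and a test asked for any difference over the 4 times, not for one in timing. The per-array difference of ILMN_2705747 minus ILMN_3127006 shifted by -0.21 at 2 h, 1.28 at 6 h and 0.52 at 18 h relative to 0 h. An exact permutation test over all 15400 divisions of the 12 arrays into 4 groups of 3 gave p = 0.00234 (adjusted p = 0.00468 over the 4 pairs tested). Like the other permutation tests here, it treats the arrays as interchangeable and ignores the shared deviations of same-numbered arrays described below. This pair and the pairs that set Brdt against Brd2 and Brd3 were added after the values had been seen. Their p-values are therefore a description and not independent support. ILMN_2705747 also reached the detection filter only through the 6 h and 18 h arrays and lay near background at 0 h and 2 h.

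ILMN_2515856, annotated to the same transcript as ILMN_2705747, was detected on 0 of 12 arrays. Its signal before normalization stayed between 88 and 121 units, its detection p-value was at least 0.138, and it was left out of the tests by the filter on dim probes. Of the 36 readings of Brdt (3 probes on 12 arrays) 19 were detected.

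The log2 changes of Brdt differed with the background step. Without background correction the 18 h changes were 1.17 for ILMN_2705747 and 1.14 for ILMN_3127006, and the 6 h change of ILMN_2705747 was 0.62, each still past the threshold (limma adjusted p = 1.25e-05, 6.83e-06 and 0.000754).

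**Figure D1:**
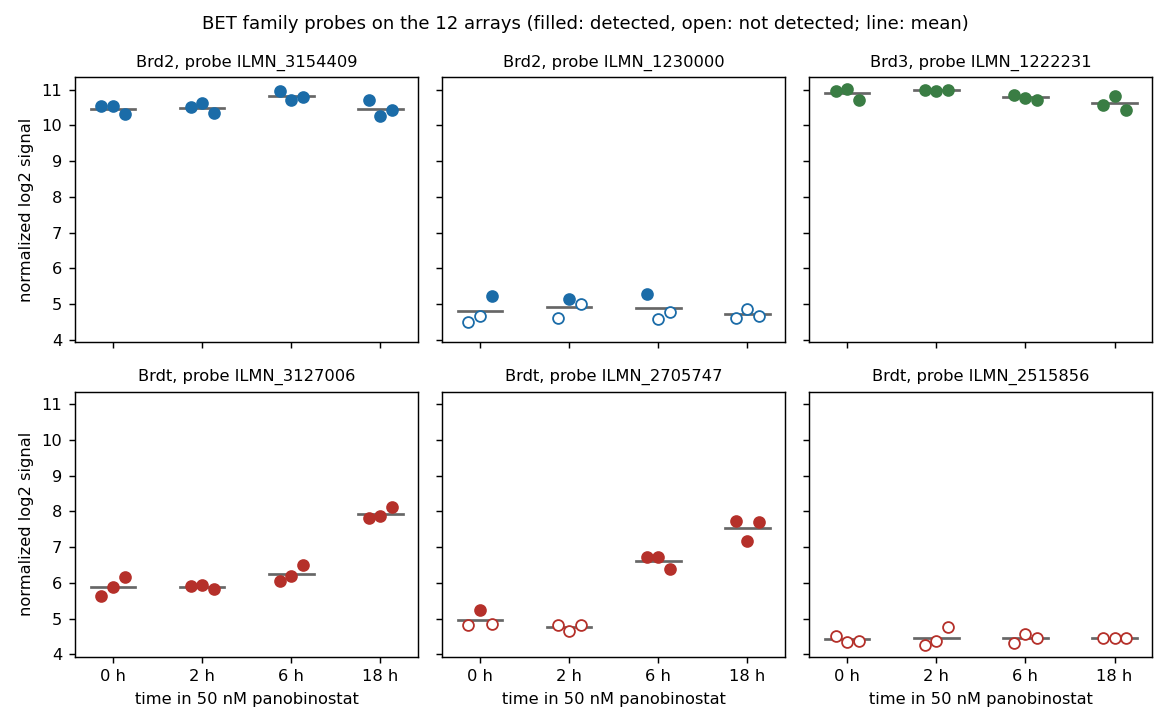
Normalized log2 signal (vertical axis) of the 6 BET probes on each of the 12 arrays by time in panobinostat, with filled points for detected and open points for undetected readings and a line at each group mean. The Brdt probe ILMN_2705747 rises from 4.98 at 0 h to 6.61 at 6 h and 7.54 at 18 h, ILMN_3127006 rises at 18 h to 7.93, and the bright Brd2 and Brd3 probes stay between 10.26 and 11.01.

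Brd2, a member tied to transcription through acetylated nucleosomes, has a bright probe, ILMN_3154409. It read 10.53, 10.53 and 10.32 at 0 h, 10.51, 10.61 and 10.35 at 2 h, 10.96, 10.71 and 10.78 at 6 h, and 10.70, 10.26 and 10.44 at 18 h. The 6 h arrays were the highest and did not overlap with the 0 h or 2 h arrays, as for 21.1% and 18% of all tested probes in this direction, whereas the 18 h arrays spread across the 0 h range.

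The change of ILMN_3154409 was 0.03 at 2 h (95% interval -0.32 to 0.37), 0.35 at 6 h (0 to 0.70) and 0.00 at 18 h (-0.34 to 0.35). At 6 h limma gave an unadjusted p-value of 0.0478 and, over all probes, an adjusted p = 0.126. It passed without background correction (0.33, limma adjusted p = 0.0476) and with the authors' normalized table (0.33, limma adjusted p = 0.0462). Its intervals leave room for a rise of up to 1.62-fold at 6 h and for a change between 0.788-fold and 1.28-fold at 18 h.

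The other Brd2 probe, ILMN_1230000, lay at background. It was detected on 1 array each at 0 h, 2 h and 6 h and on 0 at 18 h, with signals before normalization of 104 to 150 units. Its changes were 0.12 (SE 0.23), 0.09 (SE 0.23) and -0.08 (SE 0.23) at 2 h, 6 h and 18 h, with limma adjusted p-values of 0.865, 0.814 and 0.822.

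Brd3, whose protein binds acetylated transcription factors such as GATA1 as well as histones, has 1 probe, ILMN_1222231. It read 10.96, 11.01 and 10.70 at 0 h, 11.00, 10.97 and 10.99 at 2 h, 10.85, 10.77 and 10.72 at 6 h, and 10.58, 10.83 and 10.43 at 18 h. The 2 h arrays lay above every 6 h array, a separation seen for 16.3% of all tested probes in this direction, and the 18 h arrays overlapped with both 0 h and 6 h.

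The change of Brd3 was 0.10 at 2 h (95% interval -0.24 to 0.43), -0.11 at 6 h (-0.44 to 0.22) and -0.28 at 18 h (-0.61 to 0.05, limma adjusted p = 0.188). With each array scaled to its 75th percentile the 18 h change was -0.56 and passed (limma adjusted p = 0.0197). That scaling also moved the median over all probes to -0.17 at 18 h and -0.13 at 6 h, from -0.01.

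Counted over the 5 tested BET probes, 0 passed limma's test at 2 h (0 also at an unadjusted p-value under 0.05), 1 at 6 h and 2 at 18 h, all of them Brdt probes and all upward. Over all 20029 probes 2.56%, 27.2% and 32.3% passed at these times. The BET counts include ILMN_2705747, which reached the detection filter only through the 6 h and 18 h arrays, where it is high. Between 2 h and 6 h 1 BET probe passed and between 6 h and 18 h 2 did, against 9.8% and 9.15% of all probes. The test for any change over the 4 groups called the same 2 Brdt probes (limma adjusted p = 8.23e-06 and 2.25e-06), against 38.6% of all probes, and not Brd2 (0.215 and 0.855) or Brd3 (0.226).

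**Figure D2:**
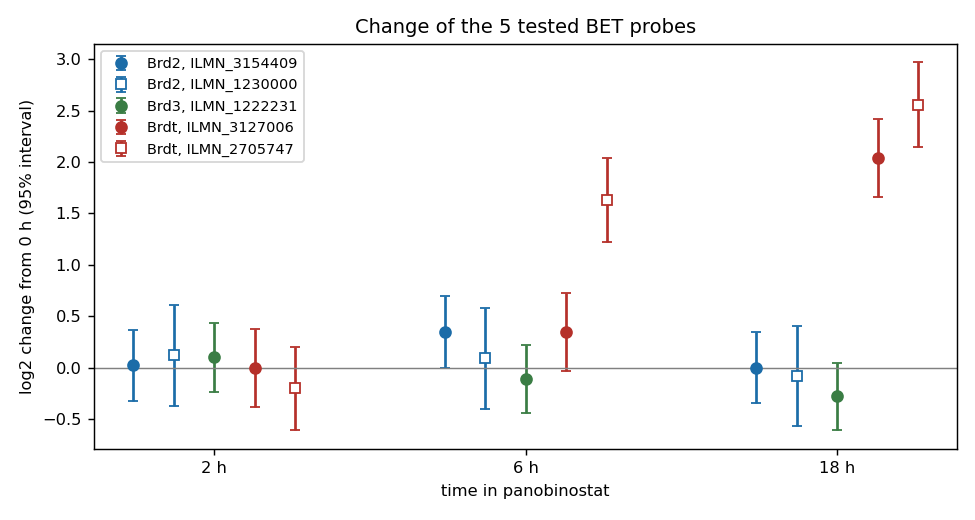
Log2 change from 0 h (vertical axis) of the 5 tested BET probes at 2 h, 6 h and 18 h, with 95% intervals from limma. At 18 h the Brdt intervals start at 1.66 and 2.15, while every Brd2 and Brd3 interval includes 0 or reaches it.

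Whether the members responded differently was tested on per-array differences between the brightest probes, in which the offset between probes cancels. Brdt minus Brd3 shifted by -0.09 at 2 h, 0.46 at 6 h and 2.32 at 18 h relative to 0 h (exact permutation p = 0.00214, adjusted p = 0.00468). Brdt minus Brd2 shifted by -0.02, 0.00 and 2.03 (exact permutation p = 0.0179, adjusted p = 0.0239). Both tests ask for any difference over the 4 times, not for one at a given time.

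Brd2 minus Brd3 shifted by -0.07, 0.46 and 0.28 at 2 h, 6 h and 18 h, with SDs over 3 arrays of 0.05, 0.14, 0.09 and 0.37 at 0 h, 2 h, 6 h and 18 h. The exact permutation test gave p = 0.055 (adjusted p = 0.055), which misses the threshold and does not show that both genes responded alike. The adjusted p of the exact permutation test was 0.00623 without 18 h replicate 2, and 0.0465 with 75th percentile scaling.

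Brdt was set beside a list of 24 male germ cell genes, of which 23 are on the array and 12 were bright enough to test. At 2 h and at 6 h 1 gene was higher and 0 were lower, and at 18 h 7 were higher and 0 lower, with medians of 0.04, 0.05 and 0.86. Over all genes 2.11%, 17.1% and 20.2% were higher at these times, with medians of 0, 0.02 and 0.05. The 7 include Sycp2, detected on 3 arrays at 18 h and on 0 at the other times. Sycp2 reached the filter only where it is high and so had to differ. Sycp1, also among the 7, was detected on 0 arrays at 0 h and on 1, 3 and 2 at 2 h, 6 h and 18 h. It thus reached the filter only through treated arrays. The count is therefore no evidence about the list or about the 11 genes that were not tested.

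Hspa2, a testis-enriched heat shock protein of meiosis that many cells also make, changed most, by 2.32 at 6 h (SE 0.29, limma adjusted p = 0.000119) and 2.35 at 18 h (SE 0.29, limma adjusted p = 6.69e-05), with its second probe at 2.08 and 2.26. Its change of 1.22 at 2 h (limma adjusted p = 0.0397) did not pass without 0 h replicate 1 or 3 or without any single 2 h or 6 h array (0.053 to 0.153). It also did not pass with the authors' normalized table (0.0555), without the detection filter (0.104) or with only the groups compared (0.0566). Piwil1, a piRNA-binding protein of spermatocytes and spermatids, rose by 1.34 at 18 h (SE 0.19, limma adjusted p = 0.000158), and its second probe read 0.39. Dazl, an RNA-binding protein of germ cells, rose by 1.32 (SE 0.31, limma adjusted p = 0.00536).

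Markers fixed for male germ cells as a cell type were also read. The summed normalized signal of 8 such markers was 621 to 977 at 0 h, 632 to 819 at 2 h, 651 to 1190 at 6 h and 1300 to 1640 at 18 h, with 4 to 5 detected per 0 h array and 4 to 6 per 18 h array. Sycp3, of the meiotic chromosome axis, and Acr, the acrosomal protease, were detected on 0 of 12 arrays. In such bulk samples more cells of a type and more RNA per cell cannot be told apart.

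Summed signals of other cell types were 309 to 493 at 0 h and 885 to 1320 at 18 h for 10 fibroblast markers, of which Col3a1, Col5a2, Postn, Lum and Dcn were detected on no array. For 8 endoderm markers they were 698 to 769 and 583 to 785, for 8 trophectoderm markers 3340 to 7780 and 4030 to 7730, and for 8 markers of blood and endothelium 266 to 330 and 281 to 434. These sums weigh bright markers most. Of the fibroblast markers, Thy1 (2.22) and Fbln2 (2.00) rose at 18 h and passed limma's test. Pdgfrb, detected on 0 arrays at 0 h, was at least 1.18-fold higher and also passed, but reached the detection filter only through treated arrays. Col1a1, the only other one tested, changed by 0.41 and did not pass. Of the markers in the last 3 lists, Sox17 (0.90) and Cdx2 (1.94) rose at 18 h and passed limma's test. Hba-a1, detected on 0 arrays at 0 h, was at least 4.35-fold higher at 18 h, and Pecam1, detected on 0 at 18 h, at least 3.43-fold lower. Both passed, and no other marker of these lists did. The markers named as passing were picked after their values were seen. The part of these cell types in the Brdt result was not tested.

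**Figure D3:**
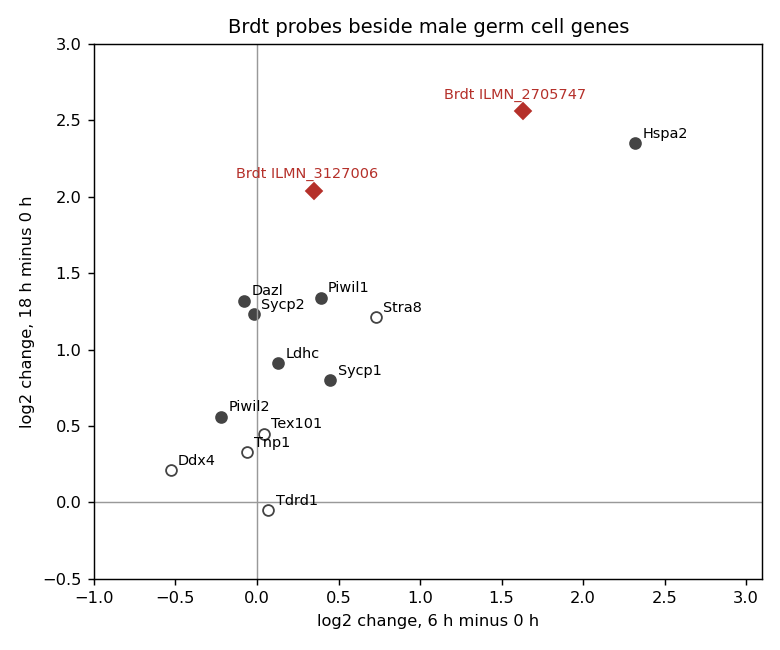
Log2 change at 6 h (horizontal axis) against log2 change at 18 h (vertical axis), both relative to 0 h, for the 12 tested male germ cell genes (circles, filled where the 18 h change passed) and the 2 tested Brdt probes (red diamonds). ILMN_3127006 lies at 0.35 at 6 h and 2.04 at 18 h, ILMN_2705747 at 1.63 and 2.56, and Hspa2 at 2.32 and 2.35.

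The genes nearest to Brdt in their course were found by the root mean square difference, over the 12 arrays, between log2 values centred on each gene's own 0 h mean. The rule had been written for Brd2 and Brd3, which did not qualify, and was applied to Brdt after its values were seen. For ILMN_2705747 the nearest of 11444 genes were Acss2 (0.23), Usp18 (0.26), Spdya (0.26), Iqcf5 (0.27) and Dapk2 (0.27), where the median gene differed by 1.53. Acss2 makes acetyl-CoA from acetate, Usp18 removes the ubiquitin-like protein ISG15, Spdya activates CDK2 in meiosis, and Dapk2 is a calcium-regulated kinase. Their measured log2 changes lay between 1.46 and 1.79 at 6 h and between 2.31 and 2.77 at 18 h, with Usp18 detected on 0 of 3 arrays at 0 h.

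For ILMN_3127006 the nearest were Mageb4 (0.26), Cdx1 (0.27), Dydc2 (0.30), Taf9b (0.30) and Plxnd1 (0.30), against 1.07 for the median gene. Mageb4 belongs to the MAGE family of genes active in testis and tumours, Cdx1 is a caudal homeobox factor, Taf9b is a subunit of the TFIID complex and Plxnd1 is a semaphorin receptor. Their measured log2 changes were 0.08 to 0.55 at 6 h and 1.62 to 2.12 at 18 h, with Dydc2 detected on 0 of 3 arrays at 0 h. No gene was nearest to both Brdt probes.

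Other readers of acetylated lysine were set beside the BET genes. Of 33 bromodomain proteins outside the BET family 26 were tested. At 2 h 1 was higher and 0 lower, at 6 h 1 higher and 8 lower, and at 18 h 1 higher and 10 lower, with medians of -0.05, -0.28 and -0.44. Over all genes 0.882%, 13% and 15% were lower at these times, and 2.11%, 17.1% and 20.2% were higher. The lower genes at 6 h and at 18 h include Baz2b, detected on 3 arrays at 0 h and on 0 at the other times, which reached the filter only where it is high and so had to differ. Baz2b, Sycp1 and Sycp2 are named for this after their values were seen. A test of the list against other genes was not made.

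The lower bromodomain genes included acetyltransferases, enzymes that add the marks BET proteins read. Ep300 changed by -1.13 at 6 h (SE 0.27, limma adjusted p = 0.00708), with its other probes at -0.35 and -0.08. Its relative Crebbp fell by 1.21 at 18 h (SE 0.20, limma adjusted p = 0.00043), with its second probe at -1.03. Kat2b, of the SAGA-type coactivators, was at least 1.98-fold lower at 18 h, where no array detected it (limma adjusted p = 0.00821).

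Zmynd11, a reader of methylated histone H3.3, fell by 0.98 at 6 h (SE 0.17, limma adjusted p = 0.000826), with its other probes at -0.97 and -0.13. The gene that rose, Smarca2, encodes a chromatin remodelling ATPase and changed by 1.15 at 6 h (SE 0.32, limma adjusted p = 0.0177) and 2.06 at 18 h (SE 0.32, limma adjusted p = 0.000345). Its 6 h call was lost without 0 h replicate 3 or 6 h replicate 1 or 2 (0.0751 to 0.0801) and without the detection filter (0.0575). Brwd3 read 0.71 at 2 h (limma adjusted p = 0.043) but 0.18 and -0.21 on its other probes, and its call was lost without any 1 array of 0 h, 2 h or 6 h other than 0 h replicate 1, or without 18 h replicate 3 (0.0526 to 0.157), and with 75th percentile scaling (0.0573) or only the groups compared (0.123).

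Among 9 YEATS and double PHD finger readers, which bind acetylated or crotonylated lysines, 6 were tested. At 2 h 0 passed limma's adjusted test and 1 an unadjusted one at 0.05, and at 6 h and at 18 h 0 were higher and 2 lower, with medians of -0.19, -0.52 and -0.24. Over all genes 0.882%, 13% and 15% were lower at 2 h, 6 h and 18 h, and 2.11%, 17.1% and 20.2% were higher. The share of all genes passing an unadjusted test was not counted, so that count cannot be read against it. Kat6b, an acetyltransferase with a double PHD finger, fell by 1.53 at 18 h (SE 0.20, limma adjusted p = 0.000113), with its other probes at -0.24 and -0.77. Its change of -0.64 at 6 h was lost without 0 h replicate 1 or 3 or 6 h replicate 1 or 2 (0.0886 to 0.117) and without the detection filter (0.0547). Yeats2, a subunit of an acetyltransferase complex, changed by -0.53 at 6 h and -0.44 at 18 h. Its 6 h call was lost without 0 h replicate 1 or 2 or 6 h replicate 2 or 3 (0.0502 to 0.0921) and its 18 h call without each array in turn but 6 h replicate 1 (0.0518 to 0.158). With 75th percentile scaling both were lost (0.0509 and 0.0599), and the 18 h call also with only the groups compared (0.114).

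The list of genes that BET inhibitors raise in human cells holds 4 genes, all tested singly. Like the other lists it was chosen with earlier results of these data known. Its counts are therefore a description, and a test of the list against other genes was not made. At 2 h 0 passed limma's adjusted test and 2 an unadjusted one, at 6 h all 4 were higher, and at 18 h 3 were higher. The medians were 0.58, 1.13 and 0.88. By the adjusted test 2.11%, 17.1% and 20.2% of all genes were higher at 2 h, 6 h and 18 h. How many of all genes passed an unadjusted test was not counted. Hexim1, which holds P-TEFb inactive, went from 5.92 ± 0.84 at 0 h to 7.55 ± 0.34 at 2 h, 8.01 ± 0.48 at 6 h and 6.42 ± 0.94 at 18 h (SD, n = 3). It rose by 2.09 at 6 h (SE 0.45, limma adjusted p = 0.00376), while its changes of 1.63 at 2 h and 0.50 at 18 h did not pass (limma adjusted p = 0.0721 and 0.431).

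Serpini1, a neuronal serine protease inhibitor, rose by 1.07 at 6 h (SE 0.17, limma adjusted p = 0.000484) and by 1.18 at 18 h (SE 0.17, limma adjusted p = 0.000178). Zcchc24, a zinc finger gene, rose by 1.18 (SE 0.20, limma adjusted p = 0.000814) and 0.83 (SE 0.20, limma adjusted p = 0.00592). Txnip, which binds thioredoxin, changed by 0.93 at 18 h (SE 0.22, limma adjusted p = 0.00455), with its second probe at 0.97, and by 0.44 with 75th percentile scaling (limma adjusted p = 0.127). Of the 5 genes that BET inhibitors lower in human cells 4 are on the array and 0 passed the filter on dim probes.

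The transcription machinery that BET proteins work with was read next. Of 20 genes for P-TEFb, its inhibitor, the super elongation complex, NELF and DSIF, 19 were tested. At 2 h 0 passed limma's adjusted test and 4 an unadjusted one, at 6 h 4 were higher and 2 lower, and at 18 h 3 were higher and 1 lower, with medians of 0.03, 0.23 and 0.03. Over all genes 17.1% were higher and 13% lower at 6 h, and 20.2% and 15% at 18 h, shares near those of this list at 6 h and above them at 18 h. By the adjusted test 2.11% of all genes were higher and 0.882% lower at 2 h, and the share passing an unadjusted one was not counted. Beside Hexim1, Eaf2, which binds ELL elongation factors, rose by 1.07 at 6 h (SE 0.20, limma adjusted p = 0.0015) and 0.81 at 18 h, and Supt4a, a DSIF subunit, by 0.79 and 0.91 (SE 0.18). Aff4, the scaffold of the super elongation complex, changed by -1.09 at 18 h (limma adjusted p = 0.0118), a call lost without 0 h replicate 1 or 18 h replicate 1 (0.0605 and 0.0631).

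Of 5 partners of the BET extraterminal domain 4 were tested. At 2 h 0 passed limma's adjusted test and 1 an unadjusted one, at 6 h 1 was higher and 1 lower, and at 18 h 1 was higher and 0 lower, with medians of 0.38, 0.39 and -0.17. Over all genes 17.1% were higher and 13% lower at 6 h, and 20.2% and 15% at 18 h, and 1 of 4 genes cannot be told from such shares. At 2 h the adjusted shares were 2.11% higher and 0.882% lower, and the unadjusted share was not counted. Chd4, a remodelling ATPase, read 0.62 at 6 h (limma adjusted p = 0.00841) and 0.15 and 0.19 on its other probes. At 18 h it read -0.25 (limma adjusted p = 0.232), and -0.84 and -0.98 on those other probes. Nsd3, a histone methyltransferase, read 0.66 at 18 h (limma adjusted p = 0.01) and -0.62 on its second probe. Jmjd6, an oxygenase, changed by -0.45 at 6 h (limma adjusted p = 0.0335), a call lost without 0 h replicate 1 or 2 or any single 6 h array (0.0676 to 0.113) and with only the groups compared (0.0738).

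**Figure D4:**
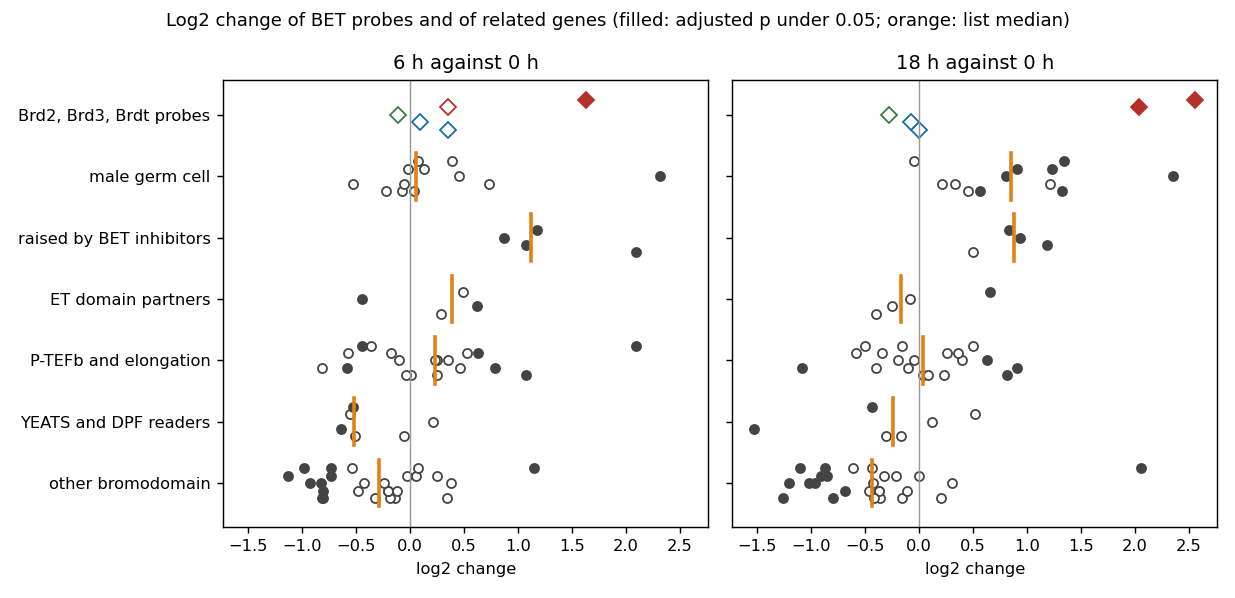
Log2 change at 6 h (left) and 18 h (right) against 0 h (horizontal axes) for tested genes of 6 lists and the 5 tested BET probes (diamonds: blue Brd2, green Brd3, red Brdt), filled where adjusted p was under 0.05, with an orange line at each list's median. The bromodomain list has medians of -0.28 and -0.44, the genes raised by BET inhibitors lie right of 0, and the Brdt probes reach 2.04 and 2.56 at 18 h.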

How the data were processed

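The authors deposited a table of unnormalized intensities and detection p-values for 12 arrays, and a second table of normalized intensities, whose arrays share nearly 1 distribution. GenomeStudio is named in the submitters' processing notes without a version. The deposited detection p-value compares a probe with about 936 negative control beads. Signals were corrected with limma's normexp model (version 3.58.1, R 4.3.3, background from the detection p-values, offset 16), quantile normalized and log2 transformed. Probes detected (p under 0.05) on at least 3 arrays were kept, 20029 in all, or 11445 genes by their brightest probe. Of 45281 probes 34885 had 1 gene, 18 several and 10378 none named, and 34807 received current symbols from RefSeq (GRCm38.p6).

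A limma model with 1 mean per group gave 2-sided moderated tests with Benjamini-Hochberg adjustment over all probes. The number of arrays limits precision (median SE 0.206). The fit was tested on simulated data with independent noise on each array, which does not cover the shared deviations of same-numbered arrays described below. The members and the 7 gene lists were chosen with earlier results of these data known. Named were all BET probes and, per list, every gene passing at 2 h and the 3 largest changes passing at 6 h and 18 h. Alternatives covered background, scaling, the authors' table, the filter, 1 probe per gene, the groups fitted, a replicate block and each array left out. The files name no slides, so no slide block was fitted.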

Additional observations from a re-analysis of the deposited data

How the results depend on the processing

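Of 25 probe results (5 BET probes in 5 comparisons) 23 kept their side of the threshold in all settings run, the exceptions being Brd2 at 6 h and Brd3 at 18 h, given with the results. The rises of Brdt kept their calls throughout, with log2 changes at 18 h of 1.08 to 2.56 for ILMN_2705747 and 1.06 to 2.04 for ILMN_3127006 across settings, and 2.45 to 2.75 and 1.91 to 2.18 with 1 array left out. The lowest values came from the authors' normalized table, whose values had 16 added before logs were taken. Such a constant narrows the log2 changes of dim probes, but the main values carry an offset of 16 too. With no constant and no background correction the 18 h changes were 1.17 for ILMN_2705747 and 1.14 for ILMN_3127006. The share of each step in the lower values was not tested. At 6 h the number of BET probes past the threshold was 2 without background correction and 2 with the authors' table, instead of 1, the added probe being Brd2's. With 1 probe per gene, which drops the dimmer probes ILMN_2705747 and ILMN_1230000, it was 0 at 6 h, 1 at 18 h, 0 for 6 h against 2 h, 1 for 18 h against 6 h and 1 for any change. Leaving out 1 array gave the same counts of BET probes as all 12, namely 0, 1, 2, 1 and 2 in the 5 comparisons and 2 for any change. The counts at 18 h and for any change were 3 with 75th percentile scaling, the added probe being Brd3's at 18 h. The difference between Brd2 and Brd3 had an adjusted p between 0.00623 and 0.124 with 1 array left out, and 0.0465 with 75th percentile scaling, where the cause was not tested. With the mean of all kept probes, 0 other bromodomain genes were higher at 2 h, 2 elongation genes were lower at 18 h, 0 extraterminal domain partners were higher at 6 h and 0 at 18 h, and 1 was lower at 18 h. At a detection p under 0.01, Brdt had 18 detected readings instead of 19.

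Same-numbered arrays of different groups deviated together with correlations of 0.059 to 0.432, above 0.1 in 16 of 18 pairs, and 11 of 12 arrays correlated best with an array of their own number. The labels give the numbers no meaning. With the replicate block no BET call changed (Brdt 2.56 and 2.04 at 18 h, adjusted p = 3.12e-06 and 2.59e-06), while the number of all probes called rose from 513 to 988 at 2 h, from 1963 to 3036 for 6 h against 2 h and from 1832 to 2993 for 18 h against 6 h. Fitting only the groups compared gave 248 at 2 h. The exact permutation tests were not run with the replicate block. With 1 array left out these 3 counts ranged over 137 to 709, 675 to 2435 and 862 to 2200. Brd2's ILMN_1230000 had no value without 3 of the arrays, when it no longer passed the filter.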
